A study of Mus musculus with 6 samples.

Results

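The genes described here are 10 immediate-early transcription factors of the AP-1, EGR and NR4A families (Fos, Fosb, Fosl2, Jun, Junb, Jund, Egr1, Egr2, Nr4a1 and Atf3) in lung group 2 innate lymphoid cells (ILC2s) of neonatal mice. They were taken by gene symbol from the 55394 genes of the deposited files. The set was drawn up with earlier results of these data known, so counts over it describe these libraries and are no independent evidence of a direction. RNA was profiled by SMART-seq, a low-input method that copies polyadenylated transcripts along their length, in 6 libraries of 1000 sorted ILC2s each. The 3 Abx libraries came from wild type C57BL/6 pups of dams that drank ampicillin, metronidazole, neomycin and vancomycin from gestation day 10 to day 14, and the 3 Con libraries from wild type pups of control dams. The cells were gated as CD45+, lineage negative, CD90.2+ and CD25+, the same gate in both groups. The sources used here give neither the age nor the sex of the pups of these libraries, nor whether the cells of a library came from 1 pup or several, so the spread between libraries may be technical in part. The question was how each of the 10 factors differed between the groups, and which made up the lower mean of their sum in Abx.

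Immediate-early genes are transcribed within minutes of a signal, from factors and kinases that the cell already holds. AP-1 is a family of dimers: a Fos protein pairs with a Jun protein through a leucine zipper and binds a short DNA site, and Atf3 is a stress-responsive relative that joins such dimers. EGR proteins are zinc-finger factors downstream of MAP kinase signals, and NR4A proteins are orphan nuclear receptors whose genes answer to cyclic AMP and calcium signals. In lymphocytes these genes mark recent stimulation, and they are also known to be induced while tissue is digested into single cells.

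Levels are given as FPKM, the fragments of a gene scaled to the length of its exons and to all mapped fragments of the library. This puts genes on a common scale, but the level of a single gene may be far off. Gapdh, which every cell uses, had means of 21.6 FPKM in Con and 21.1 in Abx, beside 3567 and 2818 for Actb. Ranks, sums and shares between genes carry that limit. Total FPKM lay between 420941 and 489262 in the 6 libraries, and counting errors are left out because read numbers are unknown. Genes at 1 FPKM or more numbered 8574 to 9203 in Con and 7074 to 8193 in Abx, fewer in every Abx library, and the part of this in the results was not tested. Differences (Abx minus Con) are on the log2(FPKM + 1) scale, which understates those of low genes. They were tested across 8718 genes that reached 1 FPKM in at least 3 libraries. Of the 10 factors, 8 reached that level in all 6 libraries. Egr2 reached it in 4, and Egr1 in 2, which left Egr1 outside the test.

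Several measures of the libraries moved with the group. Of the 16 ILC2 markers, Gata3 (33.90 to 97.48 FPKM), Rora, Il7r, Thy1, Il2ra and Klrg1 were present in every library, while Il1rl1, the IL-33 receptor, was at 2.94 or less in Con and 0.03 or less in Abx. Of the 14 tested, 7 had a negative and 7 a positive difference. Icos (272 against 106 FPKM in mean, difference -1.37), Areg (740 against 289, -1.40) and Arg1 (630 against 438, -0.54) were lower in all 3 Abx libraries, each with an unadjusted p under 0.05 in limma. Ptprc (0.75) was higher in all 3 Abx libraries, at 18.6 to 22.9 FPKM in Con and 25.41 to 45 in Abx (unadjusted p = 0.087 in limma). The summed level of the list was 4099 to 4345 FPKM in Con and 3223 to 3905 in Abx. Areg, Arg1 and Icos lowered that sum in Abx, while Id2, with a mean of 880 in Con and 1137 in Abx, raised it.

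Markers of other cell types moved too. The 14 B cell markers summed to 633 to 836 FPKM in Con and 2025 to 2437 in Abx, with 10 of the 12 tested higher in mean in Abx and Ebf1 under 0.1 everywhere. Ly6d (difference 3.23, limma adjusted p = 0.0353) and H2-Ab1 (2.80, limma adjusted p = 0.0448) were called higher, and Ighm (1.57), Cd74 (1.21), Igkc (0.82) and, in the other direction, Cd22 (-2.06) had an unadjusted p under 0.05. Cd79b (-0.82) was lower in all 3 Abx libraries, at 69.46 to 116.78 FPKM in Con and 31.01 to 57.43 in Abx. The sums of the 11 T cell markers were 401 to 433 against 674 to 950. Of the 8 tested, 6 had a positive difference, with Cd8b1 (3.27), Cd3d (3.18) and Lck (1.79) at an unadjusted p under 0.05. Zap70 (-0.50) and Trac (-0.19) had a negative one. Zap70 was lower in all 3 Abx libraries, at 80.96 to 95.97 FPKM in Con and 52.28 to 67.98 in Abx, while Trac overlapped. Cd4 and Cd8a did not reach the level needed for the test. The 8 NK cell markers summed to 2.45 to 27.1 in Con and 215 to 235 in Abx. Gzma (5.30) was at 13.78, 10.77 and 0 in the Con libraries and at 215.41 to 223.60 in Abx, where it made up nearly all of the sum, while Klrd1 (-0.25) overlapped between groups and Eomes, Tbx21, Prf1, Klrb1c and Klra8 were under 0.1 everywhere. The 7 mast cell and basophil markers summed to 343 to 455 in Con and 185 to 295 in Abx, with all 3 of those tested lower in mean, among them Mcpt8 (-2.12) and Kit (-2.21).

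The 6 erythroid markers summed to 6422 to 14823 FPKM in Con and 3166 to 8659 in Abx, as much as the factors themselves. All 4 tested were lower in mean, with a median of -1.05, and Hbb-bt (229 against 105 FPKM in mean, difference -1.20) was lower in all 3 Abx libraries, while Alas2 (-1.63) overlapped. The sums of the myeloid (141 to 403 against 176 to 369 FPKM), neutrophil (2.91 to 16.2 against 0 to 75.3), epithelium (24.6 to 1158 against 55.7 to 142), endothelium (5.10 to 10.8 against 6.14 to 21.1) and fibroblast markers (0.61 to 0.95 against 0.62 to 2.96) overlapped between the groups. Of their genes, Sftpc (1.56) had an unadjusted p under 0.05, and Cd14 (-1.96), Cd68 (-1.59), S100a8 (2.17), Scgb1a1 (-2.9998), Epcam (-1.85) and Pecam1 (0.63) had none. Of 22 genes that every cell uses, Polr2j (1.18) and Polr2l (0.76) had an unadjusted p under 0.05, and Polr2b (-1.69) had the largest difference.

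Xist, expressed from the inactive X chromosome of female cells, was at 3.78 to 5.09 in Con and listed at 0 in all 3 Abx libraries, and the Y-linked Eif2s3y was at 0.03 to 0.86 in Con and 11.85 to 24.37 in Abx. Of 3 other Y-linked genes, Ddx3y (0.01 to 0.38 against 0.07 to 7.07), Uty (0 to 1.55 against 0.65 to 4.41) and Kdm5d (0 against 0.01 to 2.68), the first 2 overlapped. The sex of the cells and the exposure cannot be told apart. The part of all these differences in the levels of the factors was not tested. In such bulk libraries, fewer cells of a type and less RNA per cell cannot be told apart either.

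Atf3, Nr4a1 and Junb were the factors whose 3 Abx libraries all lay below the 3 Con libraries. Group means were 3.79-fold higher in Con than in Abx for Atf3, 2.22-fold for Nr4a1 and 1.63-fold for Junb. Fos, next to Junb the most abundant by mean in Con and the most abundant in Abx, had means within 1.06-fold of each other in the groups and a wide spread within each. Jun and Jund had higher means in Abx, with overlapping groups, and the remaining factors stood at far lower levels.

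**Figure D1:**
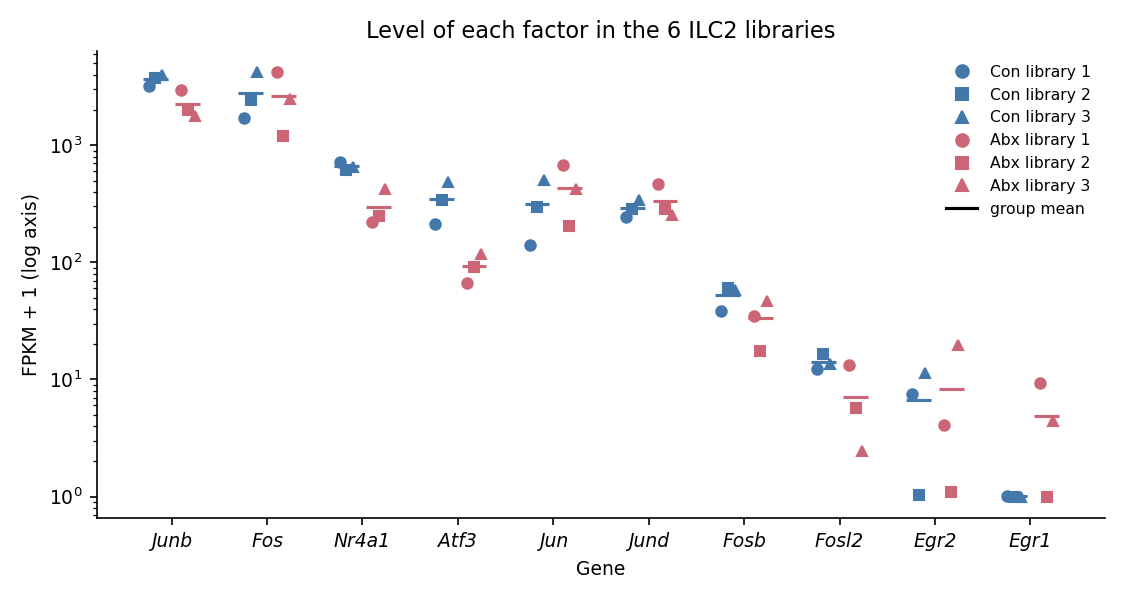
FPKM + 1 on a log axis of each of the 10 factors in the 6 libraries, with Con in blue, Abx in red and a bar at each group mean. The Abx points lie below all Con points for Junb, Nr4a1 and Atf3, whereas those of Fos and Jun are spread across the Con range and beyond it.

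Set against all genes, the count of lower factors was as follows. Of the 9 factors tested, 7 had a negative difference and 2 a positive one, with a median of -0.73. Single libraries bore on both: 5 were negative without Con library 3 and 5 without Abx library 2, and the median was -0.34 without Abx library 2. Taken per library against the mean of Con, the Con libraries had medians over the 9 of -0.22, 0.055 and 0.25, and the Abx libraries had -0.13, -1.30 and -0.17, so Abx library 2 alone lay below all Con libraries. Of all 8718 genes, 53% had a negative difference, and the median was -0.06. The groups did not overlap for 3 of the 9 with Abx lower and for 0 with Abx higher, where the share of all genes was 8.73% lower and 8.49% higher. The same 3 factors had an unadjusted p under 0.05 in limma, all lower, against 6.25% of all genes lower and 4.74% higher. With Benjamini-Hochberg adjustment over all genes, 0 of the 9 met both limits set for a call, an adjusted p under 0.05 and a fold change over 2. Such calls were few in the whole table, 0.0115% of genes lower and 0.0459% higher.

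Atf3, an AP-1 relative that stress signals induce, showed the largest difference of the 9. It lies on the minus strand of chromosome 1 (191170296 to 191218039, GRCm38). Its level was 210.17, 341.07 and 487.77 in the Con libraries, against 66.28, 89.82 and 117.91 FPKM in the Abx libraries. The lowest Con library was thus 1.78 times the highest Abx library. The mean was 346 ± 139 (SD, n = 3) in Con and 91.3 ± 25.8 (SD, n = 3) in Abx, a difference of -1.87 on the log2 scale (SE 0.36, 95% interval -2.71 to -1.03). limma gave an adjusted p of 0.0911 over all genes. By level, Atf3 ranked 300th, 171st and 119th among the genes of the Con libraries and 1067th, 825th and 584th in Abx.

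Nr4a1, an orphan nuclear receptor also known as Nur77 that lymphocytes switch on after stimulation, was the steadiest of the abundant factors in Con. The gene spans 101254269 to 101274795 on the plus strand of chromosome 15. It was at 712.02, 611.85 and 652.48 in the Con libraries, against 218.81, 245.60 and 425.77 FPKM in the Abx libraries. The Con libraries differed from each other by at most 1.16-fold and all lay above the highest Abx library, that of replicate 3. Means were 659 ± 50.4 and 297 ± 113 (SD, n = 3 each), and the difference was -1.21 (SE 0.27, 95% interval -1.84 to -0.58, limma adjusted p = 0.113). Its rank went with this, 91 to 97 in Con and 129 to 301 in Abx.

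Junb, a Jun protein that activates transcription more weakly than Jun and promotes cytokine genes in T helper 2 cells, was the most abundant of the 10 by group mean in Con. It lies on the minus strand of chromosome 8 (84974484 to 84978718). Its level was 3178.65, 3771.81 and 3993.94 in the Con libraries, against 2936.55, 2014.76 and 1783.42 FPKM in the Abx libraries. Abx library 1 came close to the lowest Con library, which was 1.08 times higher, and the other two Abx libraries stood clearly apart. The means were 3648 ± 421 and 2245 ± 610 (SD, n = 3 each). The difference was -0.73 (SE 0.22, 95% interval -1.24 to -0.21, limma adjusted p = 0.226), smaller than the fold change of 2 set for a call. With 3 libraries against 3, the exact two-sided permutation p was 0.1 for Atf3, Nr4a1 and Junb alike, the smallest that this design allows.

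**Figure D2:**
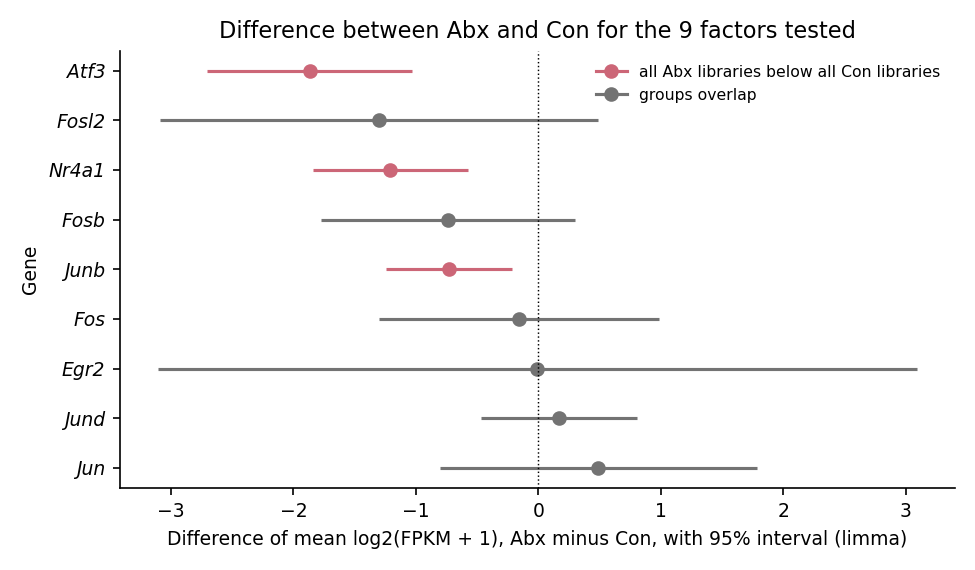
Difference of mean log2(FPKM + 1), Abx minus Con, of the 9 factors tested, with the 95% interval of limma as a line and the value 0 dotted. The intervals of Atf3, Nr4a1 and Junb, in red, lie below 0, from -2.71 to -0.21 at their widest, and the other 6 cross it.

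The promoters of these 3 genes and, for contrast, of Fos are shown to set factors whose groups did not overlap beside one whose groups did. Each is the 250 bases before the RefSeq start in GRCm38.p6, written 5′ to 3′ on the strand of the gene, with capitals for the letters TGACG of the cyclic AMP response element (CRE) or for the EGR site GCGNGGGCG on either strand.
Atf3, chr1:191183334-191183583, minus strand: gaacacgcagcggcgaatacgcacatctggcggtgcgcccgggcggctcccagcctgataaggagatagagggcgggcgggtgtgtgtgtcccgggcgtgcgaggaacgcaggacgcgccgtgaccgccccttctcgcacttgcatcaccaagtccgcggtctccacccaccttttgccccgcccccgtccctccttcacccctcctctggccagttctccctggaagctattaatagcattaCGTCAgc
Nr4a1, chr15:101266596-101266845, plus strand: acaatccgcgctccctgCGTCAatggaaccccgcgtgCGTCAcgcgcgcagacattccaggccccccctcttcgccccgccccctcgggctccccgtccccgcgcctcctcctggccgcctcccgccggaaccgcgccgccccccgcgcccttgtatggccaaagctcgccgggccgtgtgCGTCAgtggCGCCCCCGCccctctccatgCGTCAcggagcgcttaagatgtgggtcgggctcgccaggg
Junb, chr8:84978749-84978998, minus strand: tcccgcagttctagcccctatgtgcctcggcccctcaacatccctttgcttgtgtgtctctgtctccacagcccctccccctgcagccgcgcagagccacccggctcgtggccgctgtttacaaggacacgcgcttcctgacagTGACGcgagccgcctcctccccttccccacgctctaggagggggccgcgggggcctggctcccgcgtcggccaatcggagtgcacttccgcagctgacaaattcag
Fos, chr12:85473640-85473889, plus strand: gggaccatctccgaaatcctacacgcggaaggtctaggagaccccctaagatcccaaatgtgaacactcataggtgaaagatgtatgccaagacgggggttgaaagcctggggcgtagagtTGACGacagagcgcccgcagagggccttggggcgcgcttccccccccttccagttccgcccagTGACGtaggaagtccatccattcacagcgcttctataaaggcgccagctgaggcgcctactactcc
Nr4a1 held 4 matches to TGACG and 1 EGR site, Fos held 2 matches to TGACG, and Atf3 and Junb held 1 each. The match of Atf3 begins 7 bases before the start.

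RefSeq windows were used for 9 of the 10 factors, and Egr1, on chromosome 18, was left out. The 9 had 13 windows in all. A factor was counted where any of its windows held a match, whereas the shares are per window. Both strands were searched from 250 bases before the start to 50 after it, and the same was done for all 32851 windows of that length. TGACG, the short form of the CRE, was found in 6 of the 9 (Atf3, Egr2, Fos, Fosb, Junb and Nr4a1) and in 20.8% of all windows. The full CRE TGACGTCA, which contains it, was in 0 of the 9 and in 1.79% of all. The EGR site was in Fosb, Fosl2 and Nr4a1, and in 5.55% of all windows. A CArG box, the site of serum response factor, was in the windows of Egr2 and in 1.63% of all. The AP-1 site TGANTCA (7.81% of all windows) and the NR4A site AAAGGTCA (1.51%) were in 0 of the 9. TGACG was thus found both in a factor whose groups overlapped, Fos, and in one whose groups did not, Nr4a1. A match is a description of letters, not of a bound site. Sites further from the start lie outside these windows, so a factor without a match may still have such a site. RefSeq starts can also differ from the GENCODE M21 gene ends. The windows of Nr4a1 and Atf3 lie inside the gene spans given above. That of Jund ends at 70697738, before its GENCODE M21 start at 70698949.

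The groups overlapped for all 3 Fos genes. Fos, the classical partner of Jun, was at 1691.63, 2415.51 and 4222.48 in the Con libraries, against 4190.34, 1201.50 and 2473.30 FPKM in the Abx libraries. Con library 3 and Abx library 1 were almost level at the top and Abx library 2 was lowest, so the groups overlapped. The highest library was 2.50 times the lowest in Con and 3.49 times in Abx. The difference was -0.16 (SE 0.49, limma adjusted p = 0.936), with a 95% interval of -1.30 to 0.98. Leaving out Con library 3 turned the sign of the difference to 0.20, and leaving out Abx library 2 turned it to 0.32.

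Fosb and Fosl2, which pair with Jun proteins as Fos does, stood far below Fos. Fosb was at 37.43, 59.73 and 57.08 in the Con libraries, against 34.10, 16.64 and 46.10 FPKM in the Abx libraries. Its groups overlapped through Abx library 3, above the lowest Con library. The difference was -0.74 (SE 0.45, 95% interval -1.78 to 0.30, limma adjusted p = 0.629) and -0.34 without Abx library 2. Fosl2, also known as Fra-2, was at 11.39, 15.58 and 12.43 in the Con libraries, against 12.23, 4.68 and 1.46 FPKM in the Abx libraries. Abx libraries 2 and 3 lay below all Con libraries, and Abx library 1 lay among them. The difference of -1.30 (SE 0.77, limma adjusted p = 0.622) had a 95% interval of -3.09 to 0.49, and it was -0.69 without Abx library 3.

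Jun and Jund, unlike Junb, had overlapping groups. Jun, the strongest activator of the Jun proteins, was at 140.45, 293.26 and 502.75 in the Con libraries, against 674.65, 203.05 and 420.34 FPKM in the Abx libraries. The order of libraries within each group was that of Fos, with Con library 1 and Abx library 2 low and Con library 3 and Abx library 1 high. The difference was 0.49 (SE 0.56, 95% interval -0.80 to 1.78, limma adjusted p = 0.813). It was 0.0085 without Con library 1, 0.089 without Abx library 1, 0.93 without Con library 3 and 0.95 without Abx library 2. Jund, which most cells express without a stimulus, varied least among the Jun proteins across all 6 libraries, with 245.23, 281.87 and 340.94 in the Con libraries, against 463.42, 285.32 and 254.82 FPKM in the Abx libraries. Abx library 1 was the highest and the other two fell inside the Con range. Its difference was 0.17 (SE 0.27, 95% interval -0.47 to 0.81, limma adjusted p = 0.869) and became -0.088 without Abx library 1, 0.059 without Con library 1, 0.30 without Con library 3, 0.26 without Abx library 2 and 0.34 without Abx library 3.

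The make-up of the Jun family also separated the groups. Junb made up 89.2%, 86.8% and 82.6% of the summed FPKM of Jun, Junb and Jund in Con and 72.1%, 80.5% and 72.5% in Abx. Jund took 6.88%, 6.48% and 7.05% of the Con sums, against 11.4%, 11.4% and 10.4% of the Abx sums. Both shares separated the groups, Junb lower and Jund higher in all 3 Abx libraries. The log2 ratio of Jund to Junb was -3.66 ± 0.10 in Con and -2.76 ± 0.09 in Abx (SD, n = 3 each), a narrower spread than that of either gene alone. The share of Jun overlapped, at 3.94%, 6.75% and 10.4% in Con and 16.6%, 8.11% and 17.1% in Abx. These ratios were chosen after the values of the genes were known and carry no test.

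The sum over the 10 factors shows which of them made up the difference in level. It was 6233, 7791 and 10280 in the Con libraries, against 8608, 4061 and 5545 FPKM in the Abx libraries, with means of 8101 ± 2041 and 6071 ± 2318 (SD, n = 3 each). The groups overlapped, since Abx library 1 exceeded 2 of the Con libraries. Of the difference of means, -2030 FPKM, Junb made up 69.1%, Nr4a1 17.8%, Atf3 12.6% and Fos 7.63%, while Jun (-5.94%) and Jund (-2.23%) ran the other way. The size of this sum turned on single libraries: the difference was -941 without Con library 3, -1025 without Abx library 2 and -3298 without Abx library 1. The shares moved with it, from 53.0% without Abx library 1 to 131% without Con library 3 for Junb, from 28.5% to -60.4% for Fos and from 9.80% to 38.8% for Nr4a1 in the same order. That of Atf3 lay between 7.35% without Abx library 1 and 24.8% without Abx library 2.

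Split by gene, the sum fell into one set that separated the groups and one that did not, a split made after the values were seen. Atf3, Junb and Nr4a1 together were at 4101, 4725 and 5134 in the Con libraries, against 3222, 2350 and 2327 FPKM in the Abx libraries. Their means were 4653 ± 520 and 2633 ± 510 (SD, n = 3 each). The other 7 factors together were at 2133, 3066 and 5146 in the Con libraries, against 5386, 1711 and 3218 FPKM in the Abx libraries, with means of 3448 and 3438. Fos held 34.3% and Junb 45.0% of the sum of the Con means, against 43.2% and 37.0% in Abx.

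**Figure D3:**
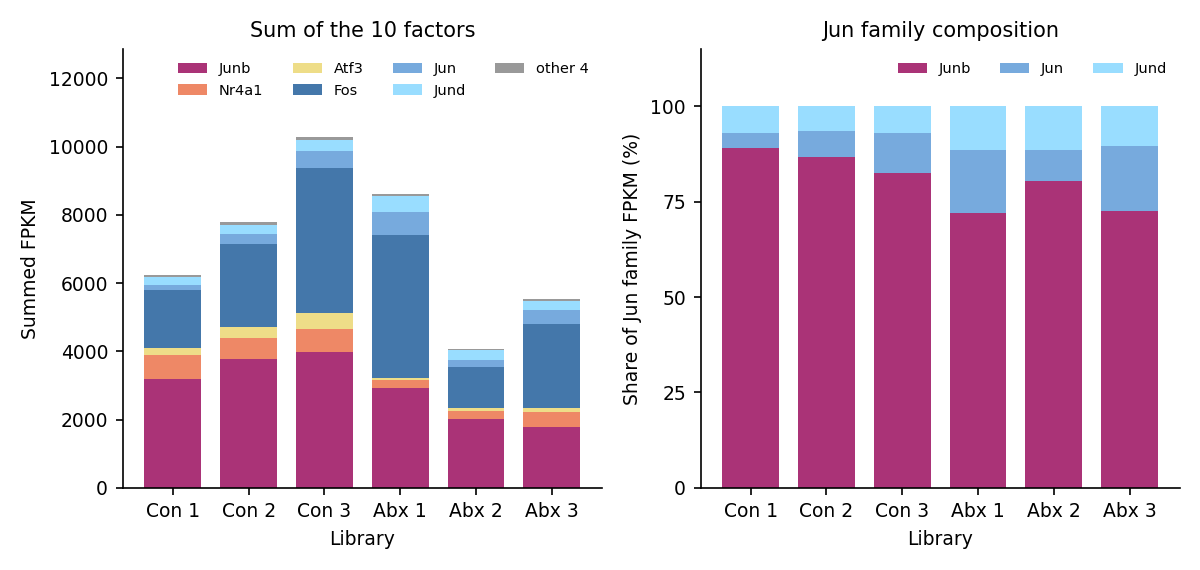
Left, summed FPKM of the 10 factors in each library, stacked by factor from 0. Right, share of each Jun protein in the summed FPKM of Jun, Junb and Jund, where Jund takes 6.48% to 7.05% in Con and 10.4% to 11.4% in Abx. The lower 3 blocks on the left, Junb, Nr4a1 and Atf3, are smaller in every Abx library, and the Fos block varies within both groups.

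The EGR genes were low, and each was near 0 in some libraries of both groups. Egr1, a target of MAP kinase signals and among the most widely used markers of stimulation, was at 0.01 FPKM in Con library 1 and listed at 0 in the other two, and at 8.30, 0 and 3.42 FPKM in Abx. It was thus seen in 2 Abx libraries while Fos was abundant in all 6. No fold is given, and the exact two-sided permutation p was 0.4. Egr2, its relative that acts in lymphocyte differentiation, was at 6.49, 0.03 and 10.42 in the Con libraries, against 3.06, 0.09 and 18.60 FPKM in the Abx libraries. Library 2 of each group was near 0, and the difference was -0.01 (SE 1.33, 95% interval -3.11 to 3.09, limma adjusted p = 0.999), too imprecise to give a direction. A value listed at 0 may be a failed estimate, as for Polr2h, a subunit of RNA polymerase II, which stood at 71.34 FPKM in Abx library 2 and was listed at 0 in library 3 of that group.

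By level, the order of group means was Junb, Fos, Nr4a1, Atf3, Jun, Jund, Fosb, Fosl2, Egr2 and Egr1 in Con. In Abx it was Fos, Junb, Jun, Jund, Nr4a1, Atf3, Fosb, Egr2, Fosl2 and Egr1. Atf3, Jun and Jund were neighbours in Con with overlapping ranges, whereas all 3 Abx values of Atf3 lay below all Abx values of Jun and Jund. Junb and Fos overlapped in both groups.

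Across libraries, Fos and Jun were most alike. The closest pair of factors was Fos and Jun, with a root mean square difference of 0.37 between their centred log2 profiles over the 6 libraries. Of all genes tested, the nearest to Fos was Zfp36 (0.18), an mRNA-binding protein that destabilises cytokine transcripts, at 276.28, 435.99 and 752.43 in the Con libraries, against 812.61, 158.49 and 370.46 FPKM in the Abx libraries. Copg1 and Stk39 followed, both at 0.21. All 3, picked for their likeness to Fos, were highest in Con library 3 and Abx library 1 of their groups, as Fos was.

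The genes nearest to Nr4a1, picked for a profile like its own, separated the groups as it did. They were M6pr (0.15), a receptor that carries enzymes to lysosomes, the predicted gene Gm7816 (0.17) and Cdkn1a (0.17), the cell cycle inhibitor p21. Cdkn1a was at 594.69, 581.63 and 677.34 in the Con libraries, against 213.33, 258.31 and 320.84 FPKM in the Abx libraries. For Egr1, seen in 2 libraries, the nearest were Gm10355 (0.35), Gm8783 (0.38) and Eps15 (0.41), which had their highest levels in the same 2 libraries. These likenesses follow from how the genes were picked and rest on 6 libraries, whose group difference they share.

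**Figure D4:**
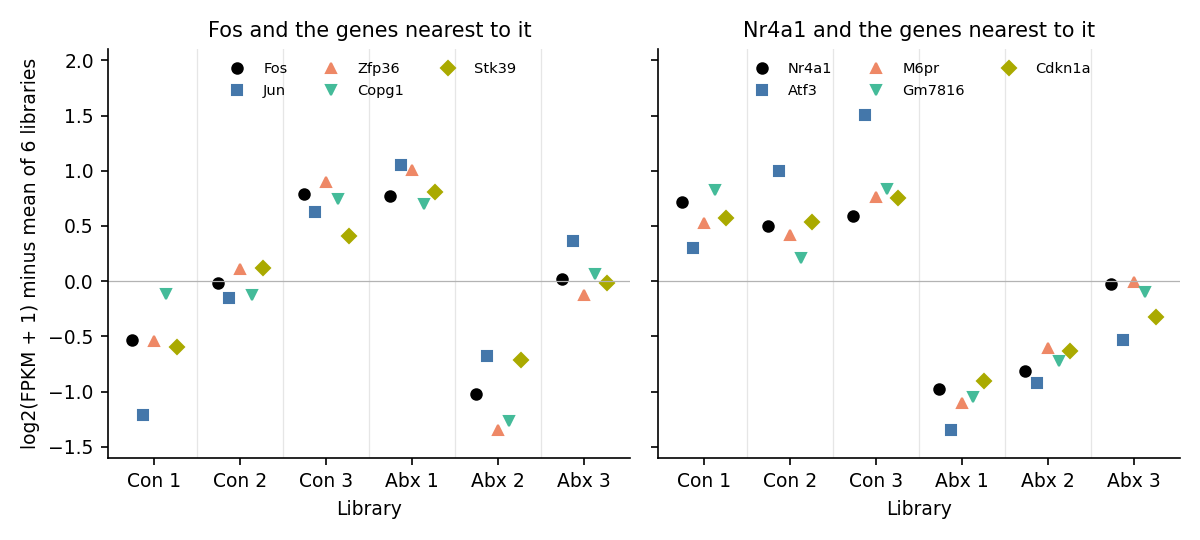
log2(FPKM + 1) minus its mean over the 6 libraries, one point per gene and library. Left, Fos, Jun and the 3 genes nearest to Fos (root mean square difference of 0.18 to 0.21) are high in Con library 3 and Abx library 1. Right, Nr4a1, Atf3 and the 3 genes nearest to Nr4a1 (0.15 to 0.17) are above 0 in the 3 Con libraries and at or below 0 in the 3 Abx libraries.

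Relatives of the factors mostly had negative differences. Of 20 other AP-1, EGR and NR4A family genes, 13 were tested, 10 with a negative difference, and the median was -0.99. Over all genes tested, 53% were negative. Nr4a2, also known as Nurr1, was at 124.34, 158.94 and 118.57 in the Con libraries, against 53.69, 35.57 and 49.44 FPKM in the Abx libraries, a difference of -1.52 (SE 0.28, limma adjusted p = 0.0911). Fosl1, also known as Fra-1, was at 34.9, 48.24 and 21.44 in the Con libraries, against 10.08, 6.05 and 0.22 FPKM in the Abx libraries, a difference of -2.90 (SE 0.89, limma adjusted p = 0.226). The groups did not overlap for these or for Nr4a3 and Maff, all lower, or for Atf1, which was higher. Over all genes tested, groups did not overlap for 8.73% with Abx lower and 8.49% with Abx higher. Jdp2, a repressor of AP-1, had the largest difference after Fosl1, -1.90, with overlapping groups. Egr3, Batf2 and Batf3 were under 0.1 FPKM in every library.

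Beyond these families, 32 of 36 other immediate-early genes were tested, 20 with a negative and 12 with a positive difference, and the median was -0.33. Over all genes tested, 53% had a negative difference. An unadjusted p under 0.05 in limma was reached by 6 lower genes and 1 higher gene, against 6.25% and 4.74% of all genes. After adjustment 0 were called. Arc, best known as a neuronal activity gene, was at 13.98, 19.23 and 17.14 in the Con libraries, against 0.83, 0.06 and 0 FPKM in the Abx libraries (difference -3.82, limma adjusted p = 0.0911). Rgs2, a brake on G protein signals, was lower by a like amount (-3.83, limma adjusted p = 0.141). The others were Csrnp1 (-1.30), Ier3 (-1.01), Ppp1r15a (-0.80) and Gadd45b (-0.55). Nfkbia, the inhibitor of NF-kappaB, stood higher, at 0.39 to 0.67 FPKM in Con and 4.14 to 10.36 in Abx (2.32, limma adjusted p = 0.181). Its Con values were all under 1 FPKM, and whether such low values are failed estimates was not tested. Dusp6, which switches off ERK, had the largest positive difference of the list (2.47) without reaching an unadjusted p of 0.05. Its groups did not overlap, at 0.27 to 32.62 FPKM in Con and 37.44 to 63.33 in Abx. Among the genes tested in this list, groups did not overlap for 7 with Abx lower and 2 with Abx higher. The shares of all genes tested were 8.73% lower and 8.49% higher.

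Kinases and factors listed as inducers of these genes mostly had negative differences as well. Of 26 listed, 25 were in the files and 21 were tested, 17 with a negative and 4 with a positive difference, with a median of -0.60. Over all genes tested, 53% had a negative difference. Crem, which binds the CRE and includes the cyclic AMP early repressor, was at 184.27, 169.61 and 171.30 in the Con libraries, against 75.34, 65.05 and 31.78 FPKM in the Abx libraries. The groups lay far apart, with a difference of -1.68 (SE 0.35, limma adjusted p = 0.0967). Map2k1, the kinase that activates ERK, had the largest difference of the list, -1.74, with overlapping groups. Elk1 was under 0.1 FPKM in every library, and Srf was at 0.02 and 0.13 FPKM on average in Con and Abx. Of the 10 EGR corepressors and other negative regulators, 9 were tested, 6 with a negative and 3 with a positive difference, with 0 at an unadjusted p under 0.05 in limma and 0 called. Dusp1, Dusp2, Dusp6, Zfp36, Zfp36l1, Zfp36l2 and Jdp2 also belong to the lists described above, so this list is not separate from them. Dusp6, higher in Abx and already counted above, was the 1 gene tested in this list whose groups did not overlap. Over all genes tested, groups did not overlap for 8.49% with Abx higher and 8.73% with Abx lower.

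Heat-shock genes, chaperones that cells make under stress, had mostly positive differences. Of 11 tested, 9 had a positive difference and the median was 0.24, while 53% of all genes tested had a negative difference. Hspd1 (1.42), Hspe1 (0.81) and Hsp90aa1 (0.68) had an unadjusted p under 0.05 in limma and higher means in Abx, and Dnaja1 (-1.50) had one with a lower mean. At that p, 4.74% of all genes tested were higher and 6.25% lower. The other genes tested in this list, among them Hspa1a (0.55), Hspa1b (-0.13), Dnajb1 (0.18) and Hsph1 (0.63), had overlapping groups and no such p. After adjustment 0 were called, the lowest adjusted p of the list being 0.127. The part of heat-shock genes in the levels of the factors was not tested.

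**Figure D5:**
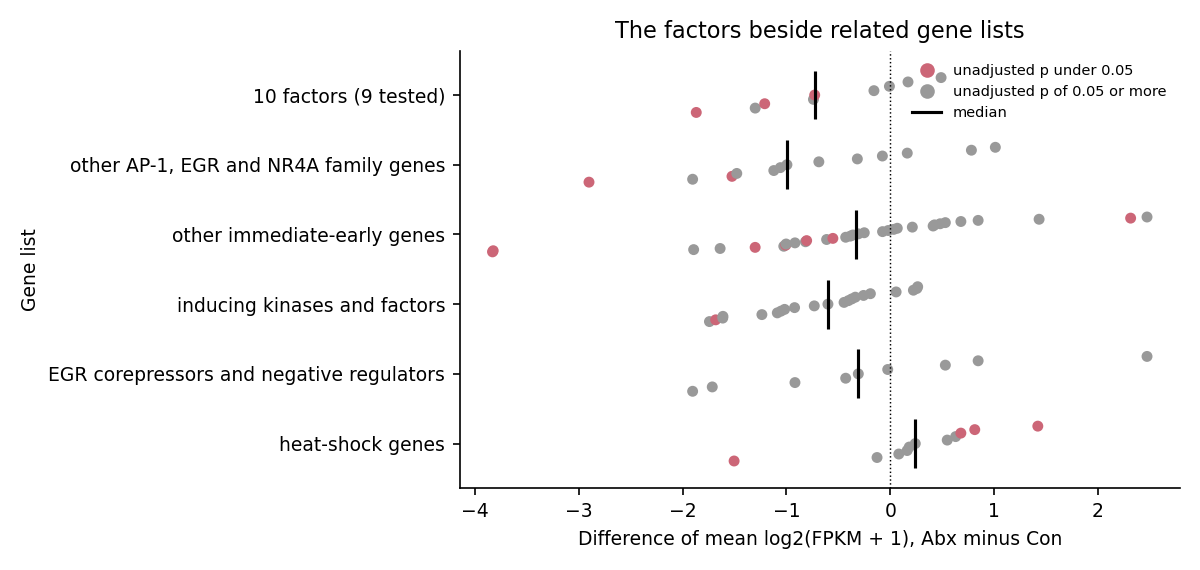
Difference of mean log2(FPKM + 1), Abx minus Con, of each gene tested in the 10 factors and in 5 related lists, in red where the unadjusted p of limma is under 0.05, with a black bar at the median. Genes that belong to more than 1 list are drawn in each. The medians are -0.73 for the factors, -0.99 for the other family genes, -0.33 for other immediate-early genes, -0.60 for inducing kinases and factors, -0.31 for corepressors and negative regulators, and 0.24 for heat-shock genes.

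Neighbouring transcripts were looked at because the library kit does not mark the strand, so reads of a gene and of a gene on the opposite strand cannot be told apart where they overlap. Fos, Fosb, Fosl2, Egr2 and Nr4a1 have no such overlap in the annotation. Junb overlaps Prdx2, a peroxidase, which was at 52.19, 90.17 and 59.32 in the Con libraries, against 63.63, 104.65 and 110.24 FPKM in the Abx libraries, far below Junb in every library and with a higher mean in Abx. Jun overlaps Junos, at 1.13 FPKM or less in every library. Gm11175, opposite Jund, and Gm24748, opposite Atf3, were listed at 0 throughout.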

How the data were processed

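Lung ILC2s were profiled by SMART-seq in 3 Con and 3 Abx libraries, grouped by their labels. The deposited values are FPKM. To make them, the authors removed adapters with Cutadapt, aligned reads with HISAT2 and quantified genes with StringTie. The methods name a human Ensembl annotation, the submitters' processing notes name Bowtie 0.12.2, mm8 and mm9, and the files carry mouse identifiers, 55134 of 55394 of them in GENCODE M21 (GRCm38), so the build behind the values is not settled. Coordinates of genes are from GENCODE M21. Read counts could not be recovered, since 25.0% to 32.5% of low values lay near a multiple of the best step against 20% by chance. The DESeq2 test of the authors needs read counts and was not repeated.

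No scaling was added. The 8718 genes that reached 1 FPKM in 3 or more libraries were tested on log2(FPKM + 1) with limma 3.58.1 in R 4.3.3 (lmFit, eBayes with trend, two-sided, Benjamini-Hochberg). A call needed an adjusted p under 0.05 together with a fold change over 2. Egr1, under the filter, had an exact permutation test. Promoters are from RefSeq (GRCm38.p6). Tables were made in Python 3.11.15 (numpy 2.4.6, pandas 2.3.3).

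The 10 factors and all gene lists were chosen with earlier results of these data known. Named besides the factors are, per list, called genes, those with an unadjusted p under 0.05, the 2 with the largest difference, and the 3 genes nearest to Fos, Egr1 and Nr4a1 in profile. A few others were named after their values were seen. These were neighbours on the opposite strand, sex-linked genes, genes whose groups did not overlap, Actb, Gapdh, and markers at 0 or checking the gate. Markers and heat-shock genes named to set beside others of their list were among them too. Alternatives were pseudocounts of 0.1 and 0.01, quantile normalization, median centring, each library left out, no filter, a minimum mean of 5 FPKM, a replicate block and the unadjusted p.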

Additional observations from a re-analysis of the deposited data

How the results depend on the processing

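The differences of Atf3 (-2.19 to -1.58), Nr4a1 (-1.50 to -1.02) and Junb (-0.94 to -0.58) stayed negative under the 13 alternatives, with limma adjusted p of 0.0864 to 0.485, 0.0973 to 0.559 and 0.176 to 0.755. In these 13 alternatives 0 factors were called. By the unadjusted p with a fold change over 2, an alternative that was chosen after seeing the data for the factors, 2 were (Atf3 and Nr4a1), beside 499 genes lower and 315 higher. Of all genes, 1 was called lower and 4 higher. Pseudocounts of 0.1 and 0.01, no filter and the replicate block each gave 0 and 0. Quantile normalization gave 2 lower and 5 higher, as did a mean of at least 5 FPKM, and leaving out 1 library gave 0 to 2 in each direction. Same-numbered libraries showed no detectable shared variation (correlations of -0.020, -0.029 and 0.0097), and under the block 0 factors were called. The labels do not say whether same-numbered libraries were collected or processed together. The sign of Egr2 turned at pseudocounts of 0.1 (0.11) and 0.01 (0.36) and under quantile normalization (0.18), and it ranged from -1.08 to 1.003 over the libraries left out. Over those, Fos ranged from -0.58 to 0.32 and Jund from -0.088 to 0.34. The median of the factors was -0.34 without Abx library 2 and -0.44 with no filter, where all 10 enter, and the cause was not tested. A pseudocount of 0.01 moved the median of all genes by -0.105, and no other scaling moved it by over 0.1. Unknown read depth and 3 libraries a group limit what the FPKM of Egr1, Egr2 and Fosl2 can show.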
